A study of Mus musculus with 24 samples.

Results

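The subject is the difference between wildtype and Mstn-/- mice in the transcript response of the plantaris muscle to mechanical overload, with emphasis on genes that responded in 1 genotype only or in opposite directions. The 24 arrays of the series form 4 groups of 6, all from mice aged 3 months: untreated wildtype, overloaded wildtype, untreated Mstn-/- and overloaded Mstn-/-. Overload followed removal of the soleus and most of the gastrocnemius in both hindlimbs under pentobarbitone at 50 mg/kg, which leaves the plantaris to bear the load of its synergists. Control mice had no surgery, so the operation and the load differ between groups together. The duration of the overload, the hour of sampling and the construct that removes Mstn are unstated in the labels. Replicates are labelled as biological, with the muscle of 1 side used.

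For each of 14499 tested genes the overload response was the mean log2 intensity of the overloaded arrays minus that of the untreated arrays of the same genotype, and the difference in response was the Mstn-/- response minus the wildtype response. On this scale 1 unit is a 2-fold change. A response or a difference was called when its Benjamini-Hochberg adjusted p from limma was below 0.05. The difference was called for 2516 genes, and 1069 of these responded in 1 genotype only or in opposite directions. They are 42.5% of the called differences and 7.37% of the genes tested.

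Myostatin, encoded by Mstn, is a TGF-beta family protein secreted by muscle fibres that limits muscle mass, and animals without it carry large muscles rich in fast glycolytic fibres. Removing the synergists of a muscle makes it grow, remodel its extracellular matrix and shift its fibres towards slower, more fatigue-resistant types. Muscle also runs a circadian clock, in which CLOCK and ARNTL drive Per, Cry, Nr1d and Dbp genes through E-box sequences, and the products of those genes feed back on CLOCK and ARNTL or act on further targets through D-box sequences.

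Promoter sequences are shown for 3 genes whose transcripts fell in overloaded wildtype and rose in overloaded Mstn-/- muscle, because each holds a clock motif near its start. They run from 250 bases before to 50 bases after the RefSeq transcript start (GRCm38.p6), 5′ to 3′ on the strand of the gene. Motifs found on that strand are in capitals. The Ciart promoter (chr3:95882179-95882478, minus strand) holds 3 copies of the E-box CACGTG, the Coq10b promoter (chr1:55052520-55052819, plus strand) holds 1 copy, and the Per3 promoter (chr4:151044616-151044915, minus strand) holds 2 copies of the D-box TTANGTAA.
Ciart: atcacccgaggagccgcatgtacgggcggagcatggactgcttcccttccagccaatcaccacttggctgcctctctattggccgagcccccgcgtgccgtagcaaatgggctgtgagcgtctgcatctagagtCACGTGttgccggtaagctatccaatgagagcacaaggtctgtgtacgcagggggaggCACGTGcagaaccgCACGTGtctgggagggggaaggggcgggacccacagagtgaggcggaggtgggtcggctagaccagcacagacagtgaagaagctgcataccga
Coq10b: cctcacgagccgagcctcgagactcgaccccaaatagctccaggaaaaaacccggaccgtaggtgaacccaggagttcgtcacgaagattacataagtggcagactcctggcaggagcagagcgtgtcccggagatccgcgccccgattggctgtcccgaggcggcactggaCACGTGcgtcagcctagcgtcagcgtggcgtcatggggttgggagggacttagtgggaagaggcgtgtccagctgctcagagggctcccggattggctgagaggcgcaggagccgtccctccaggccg
Per3: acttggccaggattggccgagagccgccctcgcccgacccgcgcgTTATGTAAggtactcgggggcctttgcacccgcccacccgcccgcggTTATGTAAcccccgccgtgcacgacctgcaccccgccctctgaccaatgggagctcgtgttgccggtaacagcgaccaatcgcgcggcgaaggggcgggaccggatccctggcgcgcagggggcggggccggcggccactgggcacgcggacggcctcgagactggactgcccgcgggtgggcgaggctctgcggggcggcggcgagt
Only the strand of the gene was searched. The E-box reads the same on both strands, but the D-box does not. The Coq10b promoter also holds ttacataa, which is TTATGTAA on the other strand and is printed in small letters. The motifs in capitals do not overlap one another. The E-box lies in 7.15% of all 32851 RefSeq promoters of this length and the D-box, on the strand of the gene, in 1.3%. Among 11451 tested genes with a listed promoter, 11% had an E-box, against 5 of 15 circadian clock genes, 11 of 62 genes that fell in wildtype and rose in Mstn-/-, and 10 of 32 genes with the opposite pattern. On the strand of the gene the D-box was found in 1.06% of the tested genes and in 1 of 15 clock genes. There it was found in 1 of 62 genes that fell in wildtype and rose in Mstn-/-, and in 0 of 32 genes with the opposite pattern. Both single genes were Per3. Coq10b, with its D-box on the other strand, is not in these counts, which are therefore lower bounds. Per3 is shown as an example only, and no D-box share over both strands was computed. No copy of either motif was found on the strand of the gene in this window of Dbp, Arntl or Nr1d2. That says nothing about other positions, or about D-boxes on the other strand. These matches describe letters and are not evidence of binding.

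The series as a whole was uniform apart from a few arrays. Array medians ran from 138.9 to 146.7 intensity units, and the fast-fibre markers Myh4 and Pvalb were at or above log2 12 on every array. On the first principal component, with 72.7% of the variance, wildtype overload replicate 3 lay farthest out (54.8, against 34.5 to 39.8 for the other overloaded wildtype arrays). Mstn-/- overload replicate 6 lay lowest of the overloaded arrays (10.3). By limma array weights the lowest were wildtype overload replicates 4 and 3 (0.387 and 0.391) and wildtype untreated replicate 1 (0.438). The lowest median correlations within a group were those of wildtype overload replicate 3 (0.9791) and wildtype untreated replicate 6 (0.9815). Without wildtype overload replicate 3 the difference was called for 2141 genes, with 520 responding in wildtype only, 275 in Mstn-/- only and 110 in opposite directions. Without Mstn-/- overload replicate 6 the counts were 2094, 549, 245 and 107, and without both arrays 1882, 436, 267 and 100. In whole muscle, fewer cells of a type and less RNA per cell cannot be told apart.

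Both genotypes responded broadly, and wildtype moved farther. In wildtype 9560 genes were called (65.9%), of which 4396 rose (30.3%) and 5164 fell (35.6%). In Mstn-/- 8789 genes were called (60.6%), of which 3932 rose (27.1%) and 4857 fell (33.5%). Overloaded and untreated arrays did not overlap for 43% of genes in wildtype and 39.9% in Mstn-/-. The SD of the response across genes was 0.582 in wildtype and 0.462 in Mstn-/- on the log2 scale. The responses of the 2 genotypes, which share no arrays, had a Pearson r of 0.908 and a Spearman rho of 0.864 across genes, which are not independent replicates. Of 7288 genes called in both genotypes 7169 moved in the same direction.

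The difference in response was called for 17.4% of genes, with 1293 higher in Mstn-/- (8.92%) and 1223 lower (8.44%), and 90 genes (0.621%) differed at least 2-fold. The median standard error of the difference was 0.095. Fbxo7 (0.21 ± 0.07 SE) and Rrn3 (0.28 ± 0.10) lay just inside the threshold, and Zbtb10 (0.30) and Gas7 (-0.37) just outside. Responses in the same direction made up 1438 called genes, 1304 of them larger in wildtype (8.99% of genes tested; 657 rises, 4.53%, and 647 falls, 4.46%) and 134 larger in Mstn-/- (0.924%; 65 rises, 0.448%, and 69 falls, 0.476%). Wildtype alone responded for 670 genes (4.62%), with 280 rises (1.93%) and 390 falls (2.69%). Mstn-/- alone responded for 280 genes (1.93%), with 107 rises (0.738%) and 173 falls (1.19%). Opposite responses were called for 119 genes (0.821%), of which 80 fell in wildtype and rose in Mstn-/- (0.552%) and 39 did the reverse (0.269%). Only for 10 of the 80 and 3 of the 39 did untreated and overloaded arrays not overlap in either genotype. Neither response passed for the remaining 9 genes.

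A response that misses the threshold need not be absent, so the 95% interval of the silent genotype was read as well. It lay within a 1.3-fold change either way for 629 of the 670 wildtype-only genes (4.34% of genes tested) and for 255 of the 280 Mstn-/--only genes (1.76%). For such genes the response in the other genotype, if any, was within that bound, which is not narrow beside the called responses. The median called response was 0.33 for wildtype-only rises and -0.47 for falls, and 0.38 and -0.31 for Mstn-/--only genes. In the silent genotype the medians of these classes were -0.001, -0.054, -0.037 and 0.02. A response of a size similar to the called ones is thus not excluded for single genes. Class membership depended on scaling. With the arrays shifted to a common median 62 of the 119 opposite genes, 404 of the 670 wildtype-only genes and 176 of the 280 Mstn-/--only genes kept their class, among totals of 123, 559 and 278. A second quantile normalization kept 97, 567 and 224 of them.

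**Figure D1:**
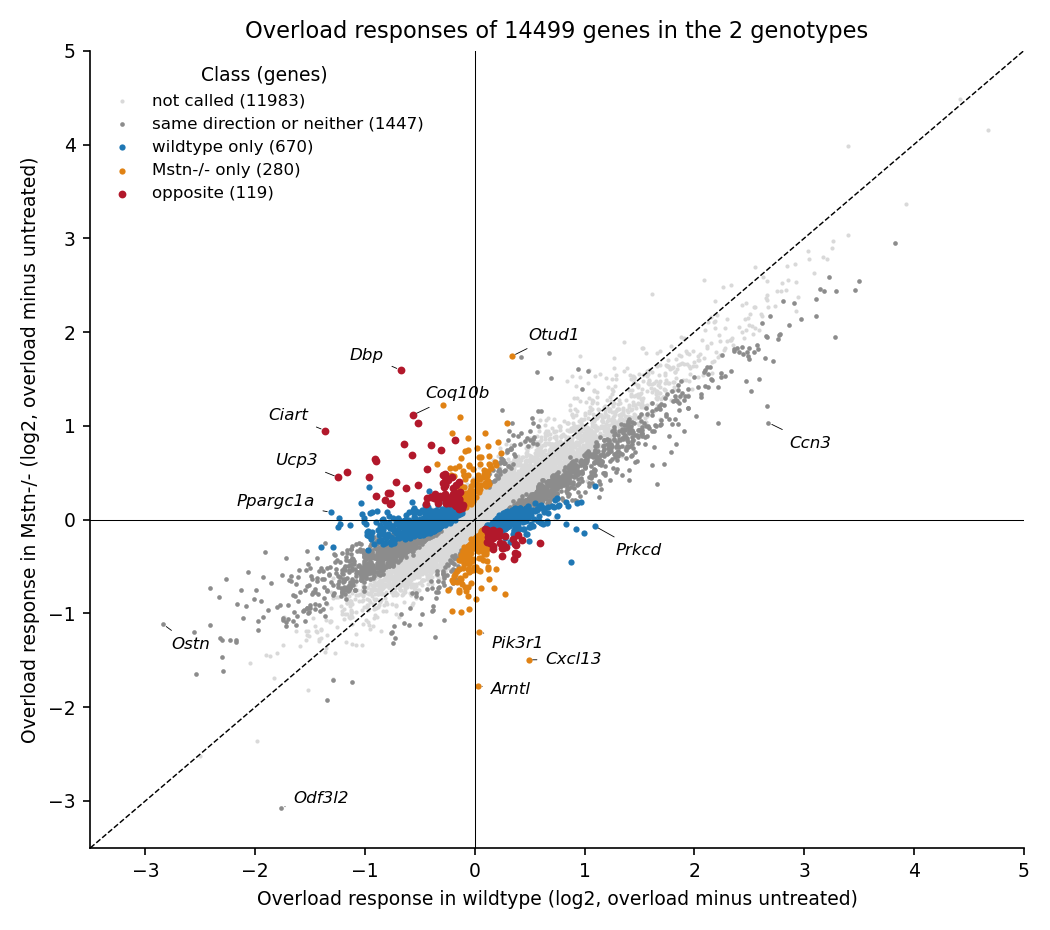
Overload response in wildtype (x axis) against Mstn-/- (y axis), in log2 units, 1 point per tested gene, coloured by class; the dashed line marks equal responses. The 119 genes with opposite responses lie at the upper left and lower right, the 670 wildtype-only genes along the horizontal axis and the 280 Mstn-/--only genes along the vertical axis.

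Several circadian clock genes moved in opposite directions in the 2 genotypes. Of 17 clock genes tested 12 had a called difference in response, 9 higher and 3 lower in Mstn-/-, against 17.4% of all genes, and 6 of the 12 moved in opposite directions. The median response of the list was -0.52 in wildtype and -0.06 in Mstn-/-. In wildtype 13 of the 17 fell and none rose; in Mstn-/- 6 rose and 7 fell.

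Levels are given below as the lowest, median and highest log2 intensity of the 6 arrays of a group. Dbp, which encodes a PAR bZIP activator acting on D-boxes, read 9.65, 9.80 and 9.85 in untreated wildtype and 8.94, 9.07 and 9.31 in overloaded wildtype. In Mstn-/- muscle it read 8.24, 8.37 and 8.63 untreated and 9.80, 10 and 10.18 overloaded. The untreated and overloaded arrays overlapped in neither genotype, untreated Mstn-/- was the lowest group and overloaded Mstn-/- the highest. The wildtype response was -0.67 ± 0.08 (SE), the Mstn-/- response 1.59 ± 0.08, and the difference 2.27 ± 0.11 (limma adjusted p = 2.38e-13).

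Ciart, a repressor of CLOCK and ARNTL whose promoter is printed above, had the largest difference of any gene with opposite responses. It read 8.17, 8.30 and 8.52 in untreated and 6.83, 6.94 and 7.16 in overloaded wildtype, then 6.46, 7.23 and 7.74 in untreated and 7.70, 8.06 and 8.69 in overloaded Mstn-/-. The wildtype groups did not overlap, and the Mstn-/- groups overlapped narrowly. The responses were -1.36 ± 0.17 and 0.95 ± 0.17, and the difference 2.31 ± 0.24 (limma adjusted p = 6.97e-07). A second probe set of Ciart gave -1.48 and 1.39.

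The 3 Per genes, which encode repressors in the clock's main loop, shared the pattern. Per3 read 8.60, 8.69 and 8.87 in untreated and 8.06, 8.16 and 8.46 in overloaded wildtype, against 7.83, 7.98 and 8.23 in untreated and 8.85, 9.07 and 9.23 in overloaded Mstn-/-, with no overlap in either genotype. Its difference in response was 1.55 ± 0.11 (limma adjusted p = 4.09e-10). Per2 moved by -0.18 ± 0.05 in wildtype and by 0.85 ± 0.05 in Mstn-/-, where the groups did not overlap (difference 1.03 ± 0.07). Per1 moved by -0.31 ± 0.11 and 0.74 ± 0.11 (difference 1.05 ± 0.16); its wildtype fall was no longer called without wildtype overload replicate 1 (adjusted p = 0.0619). Nr1d2, a nuclear receptor that represses Arntl, read 10.70, 10.79 and 11, then 9.85, 10.04 and 10.27 in wildtype, and 10.31, 10.36 and 10.44, then 10.54, 10.65 and 10.76 in Mstn-/-, and neither pair of groups overlapped. Its responses were -0.77 ± 0.06 and 0.28 ± 0.06.

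Arntl, the activator of the loop, went the other way and in Mstn-/- only. It read 8.09, 8.27 and 8.44 in untreated and 8.20, 8.30 and 8.35 in overloaded wildtype. Its Mstn-/- levels were 8.95, 9.12 and 9.36 untreated and 7.19, 7.34 and 7.65 overloaded. The wildtype groups coincided, whereas every overloaded Mstn-/- array lay below every untreated one. The Mstn-/- response was -1.77 ± 0.08, the wildtype response 0.03 with a 95% interval from -0.13 to 0.19, and the difference -1.80 ± 0.11 (limma adjusted p = 5.42e-11). Clock, the partner of Arntl, fell in both genotypes and more in Mstn-/- (-0.18 against -0.65). Nfil3, a repressor that competes for D-boxes, fell by 0.67 in Mstn-/-; its wildtype response of -0.20 missed the threshold (adjusted p = 0.0557) and passed it when 1 of 6 particular arrays was left out (0.0311 to 0.0487: Mstn-/- overload 4, Mstn-/- untreated 1 and 5, wildtype overload 1 and 2, wildtype untreated 6) and under both scalings tried.

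Tef and Hlf, the other PAR bZIP activators, fell in wildtype only. Tef responded by -0.55 ± 0.06 in wildtype and 0.13 ± 0.06 in Mstn-/-, and the latter was called only without Mstn-/- overload replicate 5 (adjusted p = 0.0428). Hlf responded by -0.70 ± 0.07 and -0.06 ± 0.07. Bhlhe40, a repressor of E-box transcription, fell by 0.73 in wildtype and by 0.24 in Mstn-/-, the latter not called without Mstn-/- overload replicate 2 or Mstn-/- untreated replicates 3, 4, 5 or 6 (adjusted p 0.0530 to 0.0949) or after a second quantile normalization. Not every clock gene differed. The Cry genes, which encode repressors in the same loop as the Per genes, had no called difference. Cry1 had medians of 7.67 untreated and 7.5 overloaded in wildtype, and 7.94 and 7.57 in Mstn-/-. Its difference was called, as a larger fall in Mstn-/-, after a second quantile normalization (-0.18). Cry2 medians were 8.85 and 8.86 in wildtype, and 9.02 and 8.93 in Mstn-/-. Nr1d1 fell by 0.74 and 0.55 and Rora, an activator of Arntl, fell by 0.74 and 0.70, with differences of 0.20 ± 0.10 (limma adjusted p = 0.177) and 0.04 ± 0.08 (0.806). The 95% interval of the Rora difference ran from -0.12 to 0.20. Without overload Dbp, Ciart, Per1, Per2, Per3 and Nr1d2 were lower in Mstn-/- than in wildtype by 0.42 to 1.38 and Arntl was higher by 0.89; under overload the 6 genes were higher by 0.57 to 1.18 and Arntl was lower by 0.91. These genes vary over the day in muscle, and since the hour of sampling is not given, the effect of group and of sampling hour cannot be told apart.

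**Figure D2:**
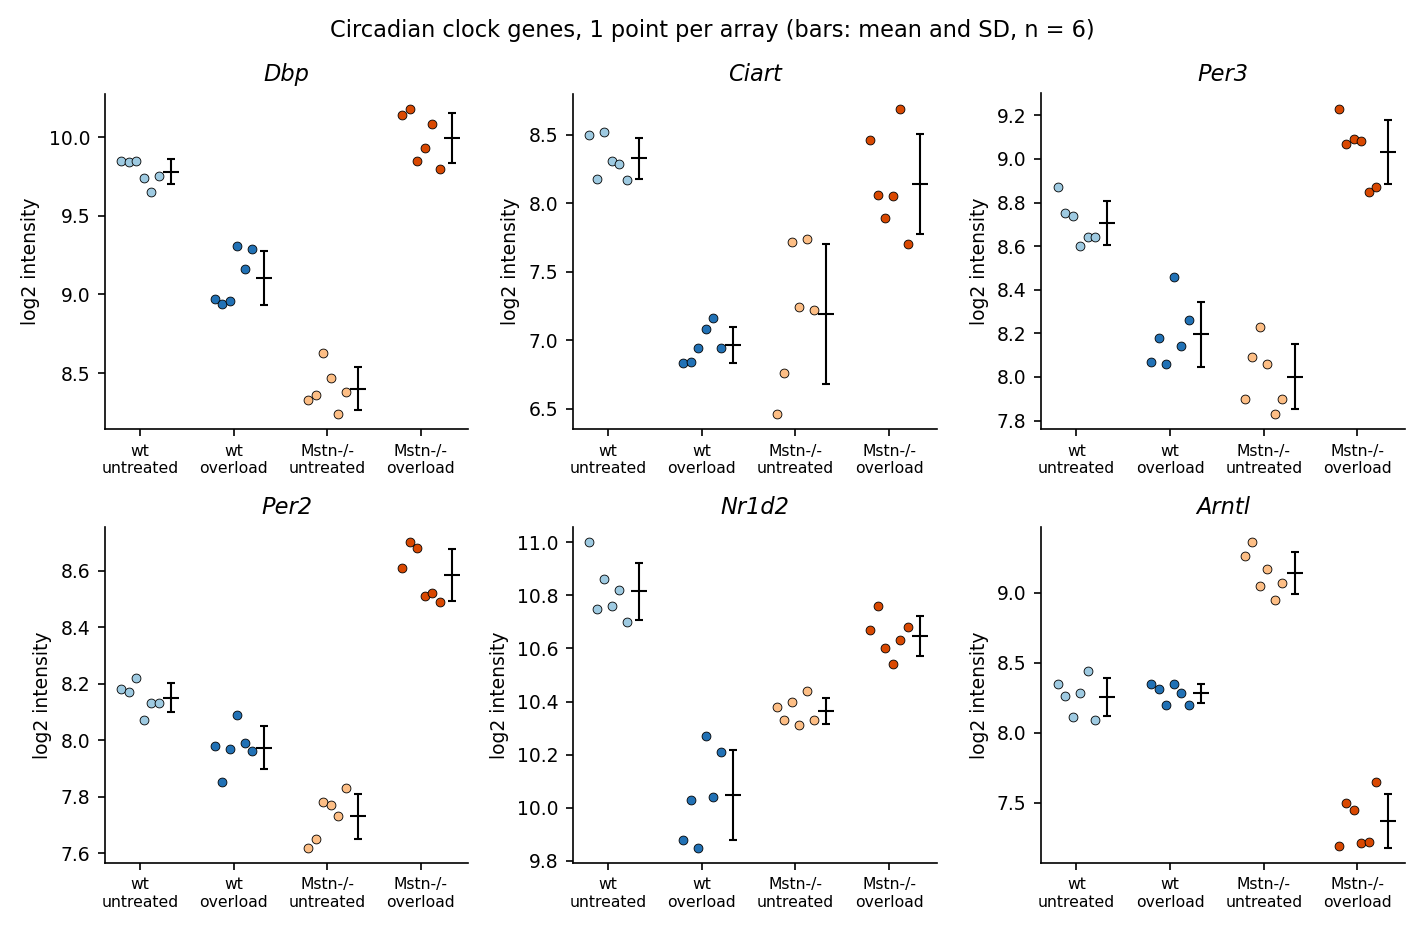
Log2 intensity of 6 clock genes, 1 point per array, with the mean and SD of the 6 arrays of each group. Dbp, Ciart, Per3, Per2 and Nr1d2 are lower in overloaded than in untreated wildtype and higher in overloaded than in untreated Mstn-/-, and Arntl is lower in overloaded Mstn-/- while the wildtype groups coincide.

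Other genes with opposite responses and a difference of more than 1 log2 unit included genes of mitochondria, fibre structure and cofactor metabolism. Coq10b, which encodes a coenzyme Q-binding protein of mitochondria, read 9.10, 9.44 and 9.77 in untreated and 8.63, 8.84 and 9.12 in overloaded wildtype. In Mstn-/- it read 8.0, 8.57 and 8.64 untreated and 9.32, 9.52 and 9.91 overloaded, so that the Mstn-/- groups did not overlap while the wildtype groups overlapped narrowly. Its responses were -0.56 ± 0.11 and 1.12 ± 0.11 (difference 1.68 ± 0.16, limma adjusted p = 2.04e-07). Ky, which encodes a muscle protein of the Z-disc region whose loss causes kyphoscoliosis in mice, read 9.96, 10.24 and 10.48, then 8.82, 9.28 and 9.71 in wildtype, and 9.27, 9.48 and 9.69, then 9.87, 10.14 and 10.40 in Mstn-/-. Neither pair of groups overlapped, and the responses were -0.91 and 0.65 (difference 1.55 ± 0.17). Nmrk2, the muscle nicotinamide riboside kinase, responded by -0.90 and 0.63 (1.52 ± 0.19); its untreated level was 1.72 lower in Mstn-/- than in wildtype.

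Ucp3, a mitochondrial carrier of skeletal muscle, read 9.95, 10.34 and 10.52 in untreated and 8.69, 9.16 and 9.38 in overloaded wildtype. The Mstn-/- arrays read 8.45, 9.36 and 9.85 untreated and 9.24, 9.78 and 10.05 overloaded, and these overlapped widely. The wildtype fall (-1.24 ± 0.18) and the difference (1.69 ± 0.25, limma adjusted p = 5.20e-05) were well outside the spread between arrays. The Mstn-/- rise of 0.45 ± 0.18 was not: it was no longer called without Mstn-/- untreated replicate 1 or 2, or Mstn-/- overload replicate 1, 5 or 6 (adjusted p 0.0592 to 0.117), nor with the arrays shifted to a common median. Nr4a1, an orphan nuclear receptor induced by contraction, responded by -0.97 ± 0.15 and 0.45 ± 0.15, and the kinase gene Sgk1 by -0.63 ± 0.11 and 0.33 ± 0.11. Mstn-/- untreated replicates 1 and 2 were the lowest of their group for both genes. They read 10.62 and 10.07 for Nr4a1 (10.97 to 11.22 on the others) and 9.34 and 9.62 for Sgk1 (9.88 to 10.04). They were also lowest for Ucp3, Ciart, Coq10b, Per1 and Mrpl46, but not for Dbp, Per3, Ky or Nmrk2. No fit left out both arrays, and Nr4a1 was no longer opposite at an adjusted p of 0.01.

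Probe sets annotated to 4 muscle microRNA genes are described, and 3 of them had opposite responses. Mir133a-1 and Mir1a-1 were named by their rank within a class, and Mir133a-2 and Mir1a-2 after their values were seen. The 4 were thus picked for their responses and give no share among muscle microRNA genes. The probe set of Mir133a-1 responded by -1.16 ± 0.19 and 0.50 ± 0.19 (difference 1.67 ± 0.26), the latter not called without Mstn-/- untreated replicate 5 or 6 (adjusted p 0.0633 to 0.0715). That of Mir133a-2 responded by -0.57 ± 0.15 and 0.69 ± 0.15, and that of Mir1a-2, with 3 group means below the intensity filter, by -0.64 ± 0.20 and 0.81 ± 0.20. For Mir1a-1 (2 group means below the filter) the Mstn-/- rise of 0.59 ± 0.18 was called; the wildtype value was -0.35 ± 0.18, called without wildtype overload replicate 4 or wildtype untreated replicate 6 (adjusted p 0.0409 and 0.0049). The probe sets read RNA of these genes and do not measure the mature microRNAs.

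The 39 genes that rose in wildtype and fell in Mstn-/- changed by a median of 0.21 and -0.19. The medians of the 80 genes with the reverse pattern were little larger, at -0.27 and 0.25. A difference of at least 2-fold was found for 19 of those 80 and for 0 of the 39. Htra3, a secreted serine protease, read 9.09, 9.14 and 9.22 in untreated and 9.43, 9.46 and 9.80 in overloaded wildtype. In Mstn-/- muscle it read 9.62, 9.70 and 9.72 untreated and 9.19, 9.30 and 9.44 overloaded, with no overlap in either genotype (difference -0.75 ± 0.08, limma adjusted p = 1.23e-06). Furin, the proprotein convertase that cleaves precursors of TGF-beta family proteins, read 9.29, 9.44 and 9.51, then 9.70, 9.76 and 9.96 in wildtype, and 9.49, 9.62 and 9.68, then 9.22, 9.36 and 9.40 in Mstn-/-, again without overlap (difference -0.65 ± 0.08). Tmem43, of the inner nuclear membrane, had the largest difference of the class (0.59 against -0.25, difference -0.84 ± 0.12). Pvt1, a long non-coding RNA, responded by 0.25 and -0.39, and Setbp1 by 0.28 and -0.30.

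Receptors of the TGF-beta family were in this class as well. Acvr1, a type I receptor for BMPs and activins, rose by 0.26 ± 0.06 in wildtype and fell by 0.30 ± 0.06 in Mstn-/-, and Tgfbr1, the type I receptor for TGF-beta and a receptor used by myostatin, rose by 0.25 ± 0.06 and fell by 0.31 ± 0.06. Untreated and overloaded arrays of both receptors overlapped in wildtype and did not in Mstn-/-. Slc38a2, a neutral amino acid transporter, responded by 0.23 and -0.25. Other members were less secure. The fall of the integrin gene Itga4 in Mstn-/- (-0.21) was lost without Mstn-/- overload replicate 5 or Mstn-/- untreated replicate 4 (adjusted p 0.0579 and 0.0541), that of the spindle gene Spag5 (-0.26) without Mstn-/- untreated replicate 1 (0.0667), and the wildtype rise of Tppp3 (0.35), a tubulin-binding protein, without wildtype overload replicate 2 or 6 or wildtype untreated replicate 4, 5 or 6 (0.0548 to 0.0768).

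**Figure D3:**
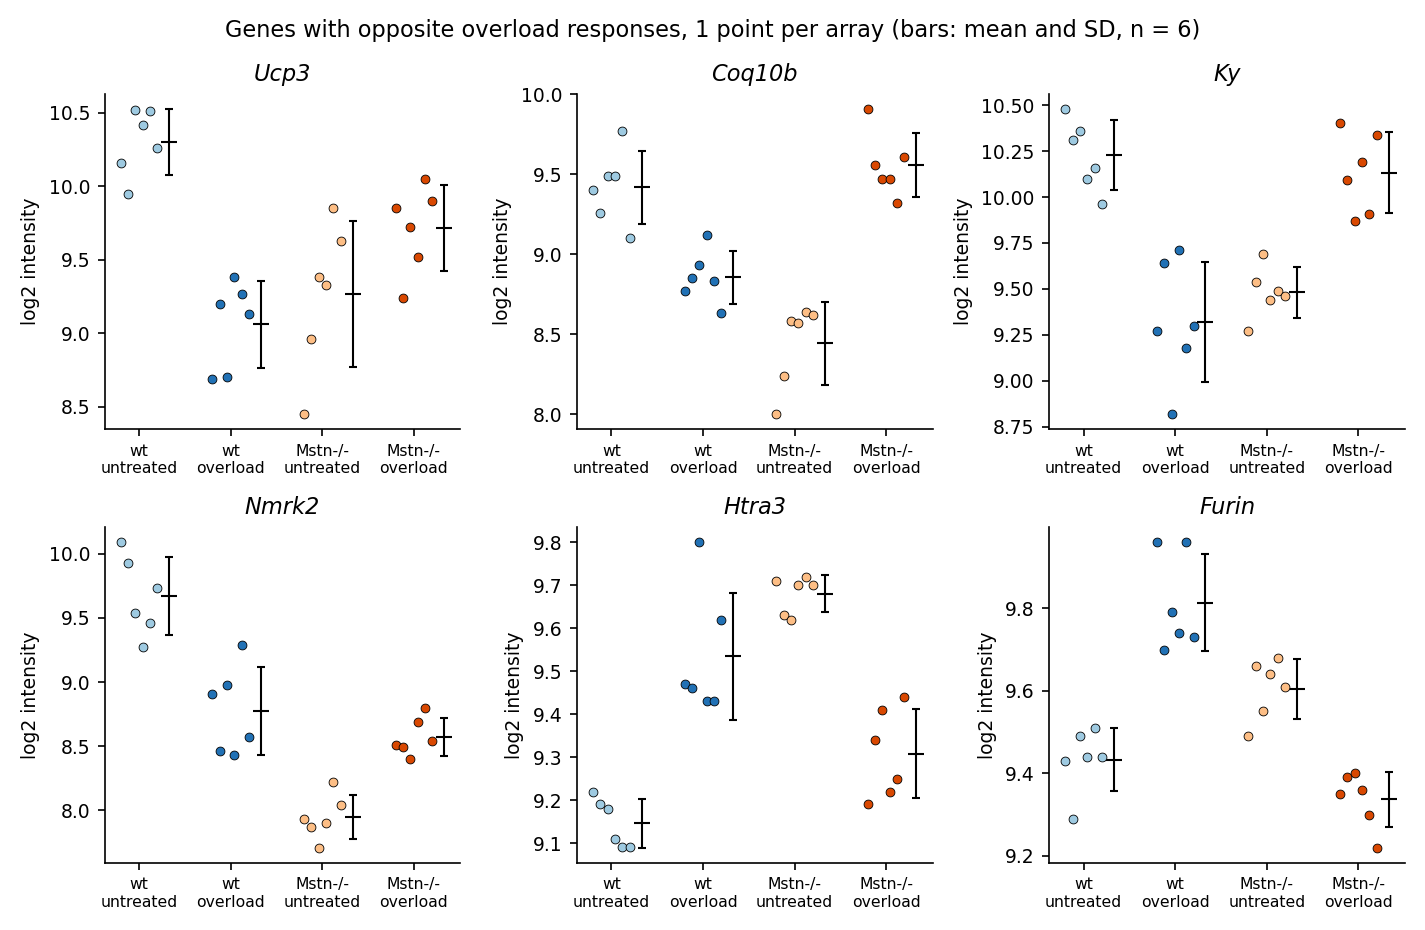
Log2 intensity of 6 genes with opposite responses, 1 point per array, with the mean and SD of the 6 arrays of each group. Ucp3, Coq10b, Ky and Nmrk2 are lower in overloaded than in untreated wildtype and higher in overloaded than in untreated Mstn-/-, and Htra3 and Furin show the reverse; the Mstn-/- groups of Ucp3 overlap.

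Among genes that fell in Mstn-/- only, several had a higher untreated level in Mstn-/- than in wildtype. Pik3r1, the regulatory subunit of phosphoinositide 3-kinase, read 10.14, 10.27 and 10.39 in untreated and 10.15, 10.26 and 10.56 in overloaded wildtype. Its Mstn-/- levels were 11.35, 11.57 and 11.71 untreated and 10.25, 10.34 and 10.48 overloaded. Untreated Mstn-/- stood above the other 3 groups, which overlapped one another. The Mstn-/- response was -1.2 ± 0.07, the 95% interval of the wildtype response ran from -0.10 to 0.18, and the difference was -1.24 ± 0.10 (limma adjusted p = 3.46e-09). Tnfrsf12a, the receptor of the cytokine TWEAK, fell by 0.72 ± 0.11 and the serine protease gene Htra4 by 0.95 ± 0.16 from untreated levels that were 0.70 and 1.04 above wildtype. Slc7a2, a transporter of cationic amino acids, fell by 0.67 ± 0.07, and Myod1, the master regulator of myogenesis, by 0.52 ± 0.09; the wildtype responses of this pair were -0.03 and 0.13.

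The largest difference of the class that fell was for Cxcl13, a chemokine that attracts B cells. It read 5.93, 6.46 and 7.21 in untreated and 6.34, 6.98 and 7.45 in overloaded wildtype, and 7.11, 8.22 and 8.68 in untreated and 6.09, 6.48 and 6.96 in overloaded Mstn-/-. With 2 group means below the filter the size of its difference (-1.99 ± 0.36) is uncertain, and its wildtype response of 0.49 was called without wildtype overload replicate 1 or wildtype untreated replicate 3 (adjusted p 0.0395 and 0.0304). Slc40a1, the iron exporter ferroportin, fell by 0.79 ± 0.14 in Mstn-/-; its wildtype mean was raised by overload replicate 3, at 9.23 against at most 8.25 on the other arrays of the group, and without that array its difference was -0.89 in place of -1.06.

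Genes that rose in Mstn-/- only included regulators of transcription and of the thin filament. Otud1, a deubiquitinase, had the largest rise of the class, from 7.31, 7.53 and 8.08 to 8.85, 9.35 and 9.62 with no overlap (1.74 ± 0.17). Its wildtype response of 0.34 was called without wildtype overload replicate 6 or wildtype untreated replicate 3 (adjusted p 0.0470 and 0.0142). Nr4a3, an orphan nuclear receptor, rose by 1.23 ± 0.19 in Mstn-/- and read -0.29 ± 0.19 in wildtype. Tcim rose from 7.78, 8.22 and 8.43 to 9.07, 9.18 and 9.54 in Mstn-/-, while the wildtype groups read 7.93, 8.26 and 8.39, then 7.79, 8.06 and 8.42. Overloaded Mstn-/- thus stood above the other 3 groups (difference 1.23 ± 0.16, limma adjusted p = 1.36e-05). Tnfaip2 rose by 0.87 ± 0.12 in Mstn-/- and read -0.06 ± 0.12 in wildtype. Lmod2, which lengthens thin filaments, rose by 0.92 ± 0.09 in Mstn-/-; its wildtype value of -0.21 was called as a fall with the arrays shifted to a common median and in 6 of the 24 fits without 1 array (Mstn-/- overload 2, 5 or 6, wildtype overload 4, wildtype untreated 3 or 6; adjusted p 0.0251 to 0.0489). Timp3, an inhibitor of matrix proteases, rose by 0.59 ± 0.08 against a wildtype response of 0.04 ± 0.08.

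Among wildtype-only responses the falls were the larger. Ppargc1a, the coactivator that drives mitochondrial gene expression, read 10.36, 10.56 and 10.60 in untreated and 8.63, 9.24 and 9.64 in overloaded wildtype. In Mstn-/- it read 10.24, 10.29 and 10.38 untreated and 9.91, 10.40 and 10.66 overloaded. Overloaded wildtype stood below the other 3 groups. The wildtype response was -1.31 ± 0.12, the 95% interval of the Mstn-/- response ran from -0.17 to 0.32, and the difference was 1.38 ± 0.17 (limma adjusted p = 4.44e-06). A second probe set of Ppargc1a gave -1.29 and 0.18.

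Lrtm1, a leucine-rich repeat membrane protein, read 9.25, 9.41 and 9.59, then 8.0, 8.22 and 8.32 in wildtype, and 9.10, 9.16 and 9.29, then 8.89, 9.19 and 9.51 in Mstn-/- (difference 1.25 ± 0.12). Map2k6, a kinase that activates p38, fell by 1.24 ± 0.13 in wildtype (Mstn-/- response -0.08 ± 0.13), and the muscle membrane protein gene Lsmem1 fell by 1.03 ± 0.14 (0.17 ± 0.14). Best3, a bestrophin, fell by 1.23 ± 0.10 in wildtype to a level near that of both Mstn-/- groups, which was 0.97 below untreated wildtype. Irs2, which links the insulin receptor to PI3-kinase, fell by 0.85 ± 0.08 in wildtype (Mstn-/- response -0.01 ± 0.08). Myl3, the light chain of slow and ventricular myosin, fell by 0.96 ± 0.21 in wildtype, whereas its Mstn-/- value of 0.35 ± 0.21 was called only without Mstn-/- untreated replicate 2 (adjusted p = 0.0218); untreated Mstn-/- was 2.44 below untreated wildtype.

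Rises in wildtype only included Prkcd, a protein kinase C, which read 7.91, 8.14 and 8.29 in untreated and 8.99, 9.20 and 9.43 in overloaded wildtype. The Mstn-/- arrays read 8.88, 8.96 and 9.12 untreated and 8.68, 8.92 and 9.04 overloaded. Untreated wildtype stood below the other 3 groups (difference -1.16 ± 0.11, limma adjusted p = 1.22e-07). Tmem100 rose by 0.83 ± 0.11 and Pdgfra, which marks fibro-adipogenic progenitors, by 0.60 ± 0.08 in wildtype, with Mstn-/- responses of -0.05 and -0.04. Uck2, a pyrimidine salvage kinase, rose by 0.93 ± 0.12 against 0.18 ± 0.12; its other probe set gave 0.58 and 0.18. Adamts5, a protease of aggrecan, rose by 0.97 ± 0.10 against 0.19 ± 0.10, the latter called without Mstn-/- untreated replicate 1 (adjusted p = 0.0152). Lcn2, an iron-binding protein of innate immunity, had the largest difference (-1.33 ± 0.45, limma adjusted p = 0.0413), but its arrays spread widely. Its call was lost in 13 of the 24 fits without 1 array, namely wildtype untreated 1, 2, 4, 5 or 6, wildtype overload 2 or 3, Mstn-/- untreated 5 or 6 and Mstn-/- overload 1, 3, 5 or 6, with differences of -1.53 to -1.03 over all 24 fits.

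Of the mast cell markers Cpa3, the mast cell carboxypeptidase, rose in wildtype only. It read 6.71, 7.15 and 7.78 in untreated and 7.88, 8.14 and 8.80 in overloaded wildtype, and 8.10, 8.32 and 8.75, then 7.95, 8.03 and 8.73 in Mstn-/- (difference -1.14 ± 0.25, limma adjusted p = 0.00247). Of 5 mast cell markers tested 2 had a called difference, both lower in Mstn-/-, against 17.4% of all genes. Their summed intensity ran from 627 to 848 in untreated wildtype, and from 925 to 1292, 918 to 1198 and 940 to 1204 in overloaded wildtype, untreated Mstn-/- and overloaded Mstn-/-. The second marker, the tryptase gene Tpsb2, responded by 0.17 and -0.28, its wildtype rise being lost without wildtype overload replicate 5 or wildtype untreated replicate 5 (adjusted p 0.0515 and 0.0790) and under both scalings.

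**Figure D4:**
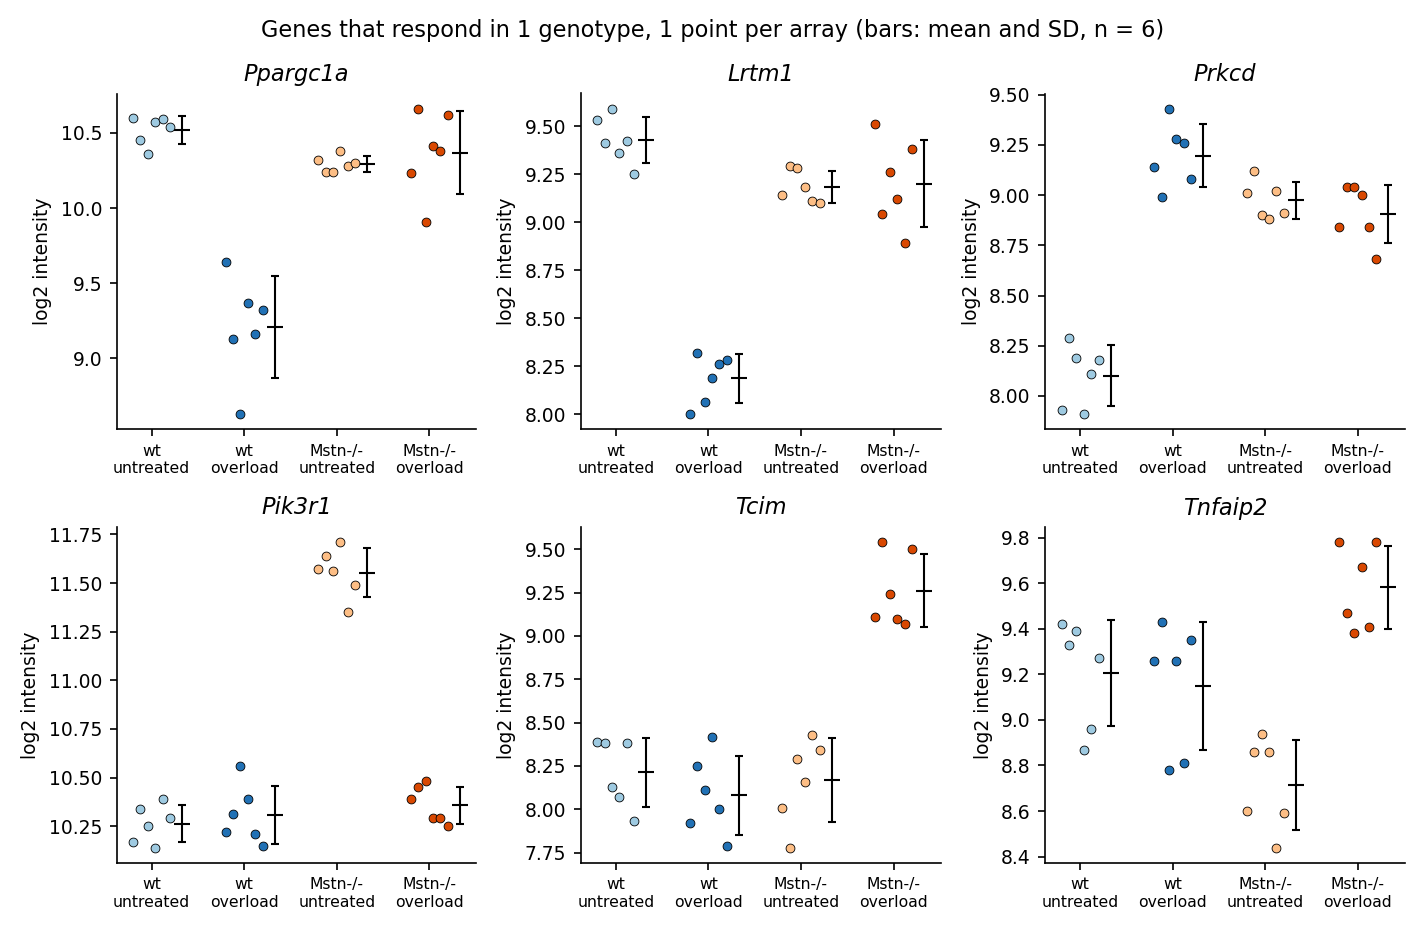
Log2 intensity of 6 genes that responded in 1 genotype, 1 point per array, with the mean and SD of the 6 arrays of each group. For Ppargc1a and Lrtm1 overloaded wildtype lies below the other groups, for Prkcd untreated wildtype does; for Pik3r1 untreated Mstn-/- lies above the other groups and for Tcim overloaded Mstn-/- does, and Tnfaip2 is higher in overloaded than in untreated Mstn-/-.

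Genes of energy metabolism fell in wildtype and fell less or not detectably in Mstn-/-. The list counts from here on are to be read beside the shares over all tested genes. Of all genes 30.3% rose and 35.6% fell in wildtype, 27.1% rose and 33.5% fell in Mstn-/-, and 17.4% had a called difference. All 25 tested genes of oxidative phosphorylation fell in wildtype, and 7 fell in Mstn-/-, against 35.6% and 33.5% of all genes. The difference was called for 21 of them, always higher in Mstn-/-, and 16 of the 21 were called in wildtype only. The median response was -0.56 in wildtype and -0.13 in Mstn-/-. Ndufa4 responded by -0.77 ± 0.08 and -0.09 ± 0.08, and Ndufs1, a core subunit of complex I, by -0.82 ± 0.10 and -0.18 ± 0.10; with the arrays shifted to a common median the Mstn-/- falls of both were called too. Of 17 citric acid cycle genes all fell in wildtype and 7 in Mstn-/-, with 15 called differences, all higher in Mstn-/-. Idh2, the mitochondrial NADP-dependent isocitrate dehydrogenase, fell by 0.75 ± 0.12 in wildtype only, from an untreated level 0.96 above that of Mstn-/-.

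Fatty acid genes also fell in wildtype, all 23 of them. Of these 22 had a called difference, all higher in Mstn-/-, with a median response of -0.88 in wildtype and -0.23 in Mstn-/-. Acaa2, the last enzyme of mitochondrial beta-oxidation, responded by -0.90 ± 0.11 in wildtype and -0.03 ± 0.11 in Mstn-/- (difference 0.87 ± 0.16). Besides Ucp3 the opposite class held Acadl, a long-chain acyl-CoA dehydrogenase (-0.44 and 0.23), whose Mstn-/- rise was not called with the arrays shifted to a common median. Among 22 mitochondrial ribosomal protein genes all fell in wildtype and 15 differences were called, all higher in Mstn-/-; Mrpl46 fell by 0.27 in wildtype and rose by 0.37 in Mstn-/-.

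Regulators of these genes were divided. Of 15 regulators of mitochondria and lipid metabolism 9 had a called difference, 8 higher and 1 lower in Mstn-/-. Ppara, a nuclear receptor of fatty acid oxidation, fell by 1.68 ± 0.11 in wildtype and by 0.60 ± 0.11 in Mstn-/-, while its relative Ppard fell more in Mstn-/- (-0.35 against -0.58). Pparg, the adipogenic member of that family, rose in Mstn-/- only (0.74 ± 0.11, wildtype -0.09 ± 0.11). Nrip1, a corepressor of oxidative genes, responded by -0.20 and 0.23, and its Mstn-/- rise was not called with the arrays shifted to a common median. Of 11 adipocyte markers 5 had a called difference, all higher in Mstn-/-, and their summed intensity had medians of 23867 and 20686 in untreated and overloaded wildtype and 21479 and 22141 in Mstn-/-. The part of adipocytes in these results was not tested.

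In glycolysis and glycogen metabolism the same direction prevailed, with smaller falls in Mstn-/-. Of 21 genes 20 fell in wildtype and 19 in Mstn-/-, and 14 differences were called, 13 of them higher in Mstn-/-. Phkg1, the catalytic subunit of muscle phosphorylase kinase, read 11.04, 11.13 and 11.29 in untreated and 8.61, 9.54 and 9.68 in overloaded wildtype, against 11.18, 11.36 and 11.48, then 10.42, 10.76 and 11.06 in Mstn-/- (difference 1.17 ± 0.18, limma adjusted p = 8.80e-05). Pgm1, phosphoglucomutase, fell by 1.37 ± 0.09 and 0.25 ± 0.09.

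Fibre-type genes differed between the genotypes in the fast set. Of 16 fast-fibre genes 8 had a called difference, all higher in Mstn-/-. Myh4, the fast IIb myosin heavy chain, read 13.45, 13.47 and 13.51 in untreated and 12, 12.38 and 12.77 in overloaded wildtype, and 13.54, 13.58 and 13.61, then 13.12, 13.36 and 13.44 in Mstn-/-. Overloaded wildtype was lowest, the groups did not overlap in either genotype, and the difference was 0.82 ± 0.14 (limma adjusted p = 0.000256); the fall of 0.26 in Mstn-/- was not called without Mstn-/- overload replicate 2 or 5 (adjusted p 0.0694 and 0.0521). Pvalb, the calcium buffer of fast fibres, fell by 0.81 ± 0.07 in wildtype, against -0.07 ± 0.07 in Mstn-/-, which was called with the arrays shifted to a common median. Of 14 slow-fibre genes 4 differed, among them Atp2a2, the slow calcium pump, which rose by 0.94 ± 0.14 and 1.60 ± 0.14 from an untreated level 1.48 lower in Mstn-/-. Of 17 calcium-handling genes 6 differed, all higher in Mstn-/-; the junctophilin gene Jph1 fell by 1.35 ± 0.10 and 0.51 ± 0.10.

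In the TGF-beta, activin and BMP pathway 17 of 39 genes had a called difference, 4 higher and 13 lower in Mstn-/-. Among ligands, Mstn itself read 10.10, 10.27 and 10.40 in untreated and 8.19, 8.38 and 8.63 in overloaded wildtype, and 8.53, 8.86 and 9.34, then 7.87, 8.22 and 8.66 in Mstn-/-. Signal remained in Mstn-/-, where untreated arrays lay below untreated wildtype; the position of the probes relative to the deleted part is not given, so this does not check the genotype. Its responses were -1.86 ± 0.13 and -0.68 ± 0.13 (difference 1.18 ± 0.18, limma adjusted p = 6.48e-05). Among receptors, Tgfbr2 rose by 1.55 ± 0.08 and 0.88 ± 0.08, and Acvr1b, the type I receptor for activin and myostatin, fell by 0.86 ± 0.09 and 0.29 ± 0.09, beside the opposite responses of Tgfbr1 and Acvr1. Of the signal transducers Smad3 rose in Mstn-/- only (0.36 ± 0.06); its wildtype value of -0.13 was called as a fall without wildtype overload replicate 4 or wildtype untreated replicate 3 (adjusted p 0.0384 and 0.0407) and with the arrays shifted to a common median. Bmp1, a protease that activates matrix proteins and latent myostatin, rose by 1.92 ± 0.09 and 1.32 ± 0.09.

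Most matrix genes rose in both genotypes, and where the difference in response was called the rise was usually the larger in wildtype. Of 17 interstitial collagen genes 16 rose in each genotype, and 11 had a called difference, all lower in Mstn-/-, with a median response of 1.94 in wildtype and 1.38 in Mstn-/-. Col5a2 rose by 2.48 ± 0.10 and 1.78 ± 0.10. In collagen processing 11 of 19 genes differed, all lower in Mstn-/-; Lox, the lysyl oxidase that cross-links collagen, rose by 2.52 ± 0.18 and 1.38 ± 0.18. Of 22 matrix glycoproteins 8 differed, 7 lower in Mstn-/-, and Cthrc1 rose by 3.83 ± 0.16 and 2.95 ± 0.16. Vtn, vitronectin, was the exception, with responses of -0.20 and 0.25. Of 18 proteoglycan genes 8 differed, all lower in Mstn-/-. Acan, aggrecan, read 6.42, 6.59 and 6.80 in untreated and 8.61, 9.20 and 10.12 in overloaded wildtype, against 6.16, 6.46 and 6.76, then 7.24, 7.62 and 8.31 in Mstn-/- (difference -1.45 ± 0.27); its untreated means were below the filter, so the size is uncertain.

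Matrix proteases and their inhibitors differed for 15 of 25 genes, 13 lower and 2 higher in Mstn-/-. Mmp2, gelatinase A, read 10.29, 10.54 and 10.82 in untreated and 12.82, 13.02 and 13.22 in overloaded wildtype, against 10.74, 10.92 and 11.20, then 12.31, 12.41 and 12.62 in Mstn-/-. Overloaded wildtype was highest, and the difference was -0.99 ± 0.13 (limma adjusted p = 9.71e-06). Plat, tissue plasminogen activator, rose by 1.62 ± 0.09 and 0.58 ± 0.09. Timp4, a protease inhibitor, fell by 2.55 ± 0.13 and 1.2 ± 0.13. Beyond these lists Ccn3, a matricellular protein, had the largest difference among shared rises (2.67 ± 0.19 against 1.04 ± 0.19) and Ostn, the muscle-secreted peptide osteocrin, among shared falls (-2.84 ± 0.18 against -1.11 ± 0.18), with 1 group mean below the filter.

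Markers of other cell types differed in part, macrophage and progenitor markers towards a smaller rise in Mstn-/- and endothelial markers the other way. Of 25 macrophage markers 10 had a called difference, all rising less in Mstn-/-; Lyz2, lysozyme, rose by 2.59 ± 0.11 and 1.49 ± 0.11. Their summed intensity ran from 5572 to 7276 in untreated and from 22836 to 35331 in overloaded wildtype, and from 7432 to 9055 and from 15591 to 30190 in Mstn-/-, so the overloaded groups overlapped. Of 13 fibro-adipogenic progenitor markers 5 differed, all lower in Mstn-/-, and their sum ran from 16463 to 21443 and from 33241 to 40023 in wildtype and from 18782 to 23095 and from 26298 to 31257 in Mstn-/-, where the overloaded groups of the 2 genotypes did not overlap. Of 16 endothelial markers 5 differed, all higher in Mstn-/-; Esam rose by 0.37 ± 0.06 and 0.68 ± 0.06, and the median sums were 9529 and 12575 in wildtype and 8471 and 12205 in Mstn-/-. The part of these cells in the matrix results was not tested.

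Responses larger in Mstn-/- were few. Wee1, a kinase that restrains mitosis and a known clock target, rose by 0.42 ± 0.11 in wildtype and 1.73 ± 0.11 in Mstn-/- (difference 1.3 ± 0.15, limma adjusted p = 2.56e-06), and Nr4a2 by 0.68 ± 0.18 and 1.77 ± 0.18. Odf3l2 had responses of -1.77 ± 0.17 in wildtype and -3.07 ± 0.17 in Mstn-/-, from an untreated level 2.23 higher in Mstn-/-. Dusp7, a phosphatase of ERK, fell by 0.36 ± 0.08 and 1.25 ± 0.08. Fbxo32, the atrophy-linked ubiquitin ligase atrogin-1, read 11.32, 11.66 and 11.80 in untreated and 9.74, 10.30 and 10.68 in overloaded wildtype, and 12.17, 12.36 and 12.60, then 10.20, 10.42 and 10.72 in Mstn-/-. Untreated Mstn-/- was highest, the overloaded groups overlapped, and the difference was -0.58 ± 0.18 (limma adjusted p = 0.0255).

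Other growth-related lists were mixed. Of 23 IGF and insulin signalling genes 8 differed, 1 higher and 7 lower in Mstn-/-; Grb10, an adaptor that dampens insulin receptor signalling, rose by 1.40 ± 0.07 and 0.78 ± 0.07. Of 24 satellite cell and myogenic genes 8 differed, 4 in each direction, with Myod1 lower and Met, the hepatocyte growth factor receptor, higher in Mstn-/- (wildtype -0.44 ± 0.06, Mstn-/- -0.01 ± 0.06). Of 31 amino acid genes 14 differed, 6 higher and 8 lower, and Gpt2, mitochondrial alanine aminotransferase, fell by 2.32 ± 0.11 and 1.26 ± 0.11. Of 23 glucocorticoid-responsive genes 9 differed, 5 higher and 4 lower. Of 23 immediate early genes and NR4A factors 4 differed, which matches the background share, and 3 of the 4 were the NR4A genes. The share of called differences was at or below the background for cytosolic ribosomal proteins (1 of 17), the proteasome (1 of 26), ribosome biogenesis (2 of 20), heat shock genes (3 of 23) and interferon-induced genes (2 of 21). None of 22 cell cycle genes and none of 9 Schwann cell and nerve markers had a called difference by limma, with 2 and 0 at an unadjusted p below 0.05; of the cell cycle genes 19 rose in each genotype.

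**Figure D5:**
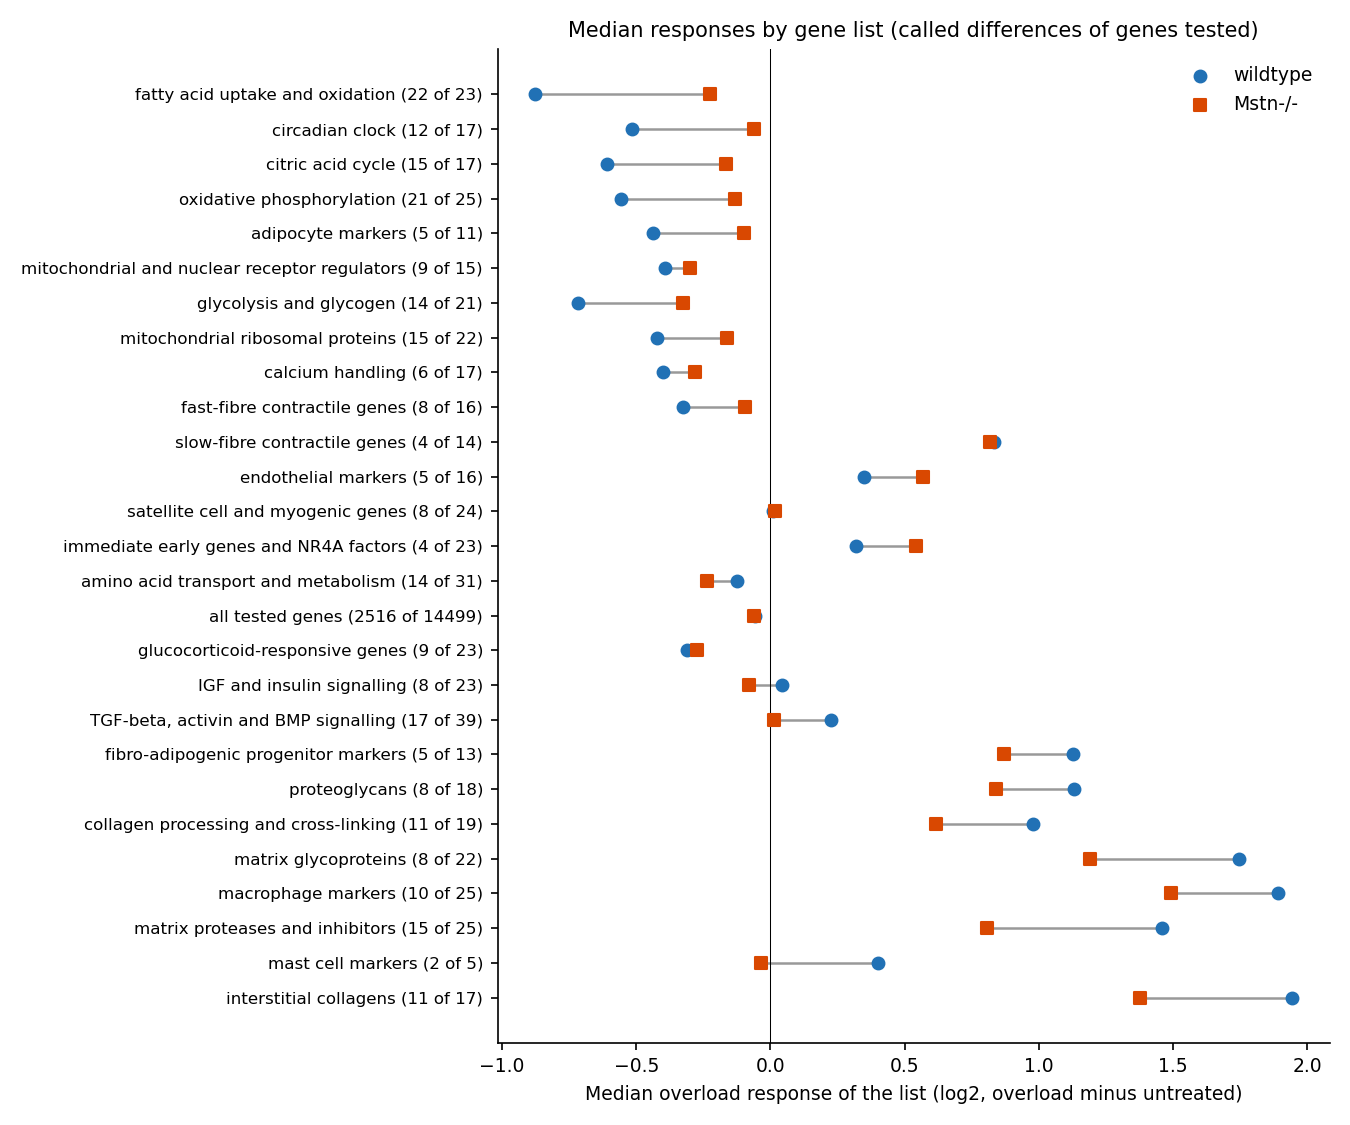
Median overload response (log2) of each gene list in wildtype (circles) and Mstn-/- (squares), ordered by the median difference, with the number of called differences and of genes tested. The widest gaps towards a higher median response in Mstn-/- belong to fatty acid, clock, citric acid cycle and oxidative phosphorylation genes. The widest towards a lower median response belong to matrix proteases, collagens, matrix glycoproteins, mast cell markers and macrophage markers.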

How the data were processed

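Expression was measured on Affymetrix whole-transcript arrays in 24 plantaris samples, from total RNA (1000 ng, extracted with TRIzol and depleted of ribosomal RNA, per the labels' protocols). The authors deposited linear intensities made with RMA (version unstated), a tool named in the processing notes of the submitters; they were taken as log2 with no pseudocount. Of 34760 probe sets 21640 carried 1 gene symbol in the platform annotation, 1321 several and 11799 none. The probe set with the highest mean stood for each of 19937 genes, and 14499 genes with at least 1 group mean above the 30th percentile were tested. An array gives no read depth, and the number of arrays limits the precision.

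limma 3.58.1 in R 4.3.3 fitted the 4 group means on the 24 arrays jointly, with eBayes variances, and p-values were adjusted by Benjamini-Hochberg across the 14499 genes. On simulated data the model recovered 24.8%, 77.3% and 97.9% of differences of 0.3, 0.5 and 1 log2 unit, and 6.01% of its calls were false. Each of 5 runs changed 200 of 14499 genes and used independent normal noise. Far more genes were called in the real data, and the adjusted p depends on that share, so these rates need not hold there. Named genes were those with the largest differences in each response class, leaving out predicted models, and up to 4 members of each described list; clock genes, receptors, microRNA genes and a few others were added after their values were seen. The members and lists were chosen with earlier results of these data known. Same-numbered arrays of different groups did not deviate together (median correlation 0.022 over 36 pairs), so numbers were not taken as pairs. Promoter sequences are from RefSeq GRCm38.p6, and gene names from the platform annotation all matched a RefSeq symbol or synonym. Alternatives covered scaling, the filter, the probe set, the variance model, array weights, the replicate block, the threshold and each array left out.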

Additional observations from a re-analysis of the deposited data

Results flagged for a closer look

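The overload response differed between the genotypes for 2516 genes by the limma test of the difference itself, and 119 genes moved in opposite directions. Among probe sets outside the comparison, 141 of 5952 without a gene symbol (2.37%) and 29 of 775 with several symbols (3.74%) had a called difference; no gene is named from them.

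Single arrays lay far from the other 5 of their group in 26 of 524 groups examined over 131 genes (4.96%), and chance gives about 1 in 20. The values below are log2 intensities, each with the nearest other array of the group. Wildtype overload replicate 3 accounted for 7 of the 26: Slc40a1 (9.23 against 8.25) and C1qc (11.1 against 10.65) were highest there, and Tppp3 (10.82 against 11.34), Asb15 (7.92 against 8.56), Jph2 (8.89 against 9.24), Ndufa4 (9.81 against 10.11) and Plin4 (9.11 against 9.45) were lowest. Mstn-/- untreated replicate 1 accounted for 5: Lmod2 (10.26 against 10.06), Tgfbr2 (9.43 against 9.22) and Bmp1 (9.52 against 9.25) were highest, and Mrpl35 (9.98 against 10.1) and Tef (9.21 against 9.33) lowest. Wildtype untreated replicate 2 accounted for 3: Ccn3 (9.87 against 8.78) and Cthrc1 (8.12 against 7.63) were highest and Furin (9.29 against 9.43) lowest.

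On other arrays, Uck2 was highest on wildtype overload replicate 5 (11.22 against 10.61) and on Mstn-/- overload replicate 5 (10.36 against 9.93), where Spag5 was highest too (7.34 against 7.0). Jph2 was highest on Mstn-/- untreated replicate 4 (10.56 against 10.38). Mir1a-1 was lowest on wildtype untreated replicate 6 (5.85 against 6.61), Odf3l2 on wildtype untreated replicate 5 (8.28 against 8.59) and Sgk1 on wildtype overload replicate 1 (8.85 against 9.35). In Mstn-/-, Slc38a2 was lowest on untreated replicate 2 (11.55 against 11.72), Bhlhe40 on overload replicate 2 (9.79 against 10.03), Rora on overload replicate 4 (9.68 against 9.86) and Mrpl46 on overload replicate 6 (8.07 against 8.25).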

How the results depend on the processing

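No called difference of a named gene changed sign under any alternative tried; the uncalled difference of Rora (0.04) was -0.0026 without wildtype overload replicate 1. At an adjusted p of 0.01 the difference was called for 1314 genes, 712 higher and 602 lower in Mstn-/-, with 437 wildtype only, 159 Mstn-/- only, 44 opposite, 622 larger in wildtype and 43 larger in Mstn-/-; a stricter threshold calls fewer genes by construction. Leaving out wildtype overload replicate 3 and Mstn-/- overload replicate 6 together, chosen after seeing the data, left 436 wildtype-only genes; the cause was not tested. Leaving out each array in turn gave 2094 to 2755 called differences, 1077 to 1573 higher and 1017 to 1250 lower, with 520 to 735 wildtype only, 236 to 305 Mstn-/- only, 101 to 133 opposite, 1048 to 1433 larger in wildtype and 105 to 153 larger in Mstn-/-. With the replicate number as a block 2440 differences were called, 657 wildtype only, 253 Mstn-/- only and 109 opposite; 9 of 36 same-number pairs correlated above 0.1 and 4 arrays correlated best with their own number, so the numbers give no pairing. Over 131 genes and the processing alternatives 1269 of 1305 values kept their side of the threshold, 33 lost the call and 3 gained it; over 1 array left out 3047 of 3144 kept it. Of the 119 opposite genes 103 stayed opposite with the block or with no filter and 98 with each genotype fitted alone. Probes near the filter have little signal over background, and fold sizes there are uncertain.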
